A study of Mus musculus with 8 samples.

Results

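The genes described here encode the histone lysine methyltransferases of the KMT2 and SETD1 families (Kmt2a, Kmt2b, Kmt2c, Kmt2d, Setd1a, Setd1b), the SETD1 subunit Wdr82 and the G9a-GLP pair (Ehmt2 for G9a, Ehmt1 for GLP). They were chosen by symbol, 9 of the 31815 genes in the table, and each symbol had 1 row. The choice was made with results of these data known, among them a lower level of Kmt2a with TOXFL, so the TOXFL values below are a description, and the calls printed beside them support nothing. All 9 genes passed the filter on low counts, with at least 121 reads in every library, as did 13329 genes in all.

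RNA sequencing was done on CD8 T cells of OT-I mice (C57BL/6-Tg(TcraTcrb)1100Mjb/J), whose transgenic T cell receptor recognises an ovalbumin peptide. Naive cells from the spleen, positive for CD3 and CD8, were cultured with the OVA peptide for 3 days, were given a TOXFL or a TOXdeltaN vector at 24 h, and were sorted on day 5. TOX is an HMG-box DNA-binding protein linked to T cell exhaustion, and each vector carried IRES-GFP, so that GFP marked the cells that carried it. The 4 groups were TOXFL GFP-, TOXFL GFP+, TOXdeltaN GFP- and TOXdeltaN GFP+ cells, with 2 libraries each, and the GFP+ groups were the top 20% of the GFP+ cells. All groups carry the OT-I transgene, and all were stimulated. The GFP- cells came from a transduced culture, and cells with a GFP-only vector were not analysed here, so TOX protein, vector and sort gate cannot be told apart in a comparison of GFP+ with GFP- cells. Whether replicates are separate mice or cultures is not in the labels, so each p-value reflects the spread of these libraries alone, and that spread may be technical.

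KMT2 and SETD1 enzymes methylate lysine 4 of histone H3 (H3K4), a mark of active promoters and enhancers. KMT2A and KMT2B (MLL1 and MLL2) work with menin at promoters, KMT2C and KMT2D (MLL3 and MLL4) place monomethylation at enhancers, and SETD1A and SETD1B place most trimethylation at promoters. WDR82 ties the SETD1 complex to RNA polymerase II, and also belongs to a phosphatase complex with PNUTS and TOX4, a relative of TOX. G9a and GLP act as a pair on lysine 9 of histone H3 (H3K9), where mono- and dimethylation go with repression. In T cells KMT2A is known for keeping the gene programme of memory T helper cells, and G9a for its part in T helper differentiation.

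The promoters of these genes are shown because KMT2A, KMT2B and the SETD1 partner CXXC1 bind unmethylated CpG through their CXXC domains, so the CpG content of a promoter is a feature by which these enzymes find their targets. RefSeq promoter windows on GRCm38.p6 were matched for 7 of the 9 genes; Kmt2b and Setd1b were not among them. The windows of Kmt2a and Kmt2d, the members with the most similar pattern over the libraries, of Wdr82, and of the paired genes Ehmt1 and Ehmt2 are printed as the 250 bases before the RefSeq start, 5′ to 3′ on the gene's strand. Capitals mark each CpG.
Kmt2a, chr9:44881290-44881539, minus strand: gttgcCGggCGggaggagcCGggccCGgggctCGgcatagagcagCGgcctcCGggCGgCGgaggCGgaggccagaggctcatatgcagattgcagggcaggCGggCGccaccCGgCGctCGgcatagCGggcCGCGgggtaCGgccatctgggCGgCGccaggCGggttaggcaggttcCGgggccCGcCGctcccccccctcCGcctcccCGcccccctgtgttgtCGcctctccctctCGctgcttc
Kmt2d, chr15:98871206-98871455, minus strand: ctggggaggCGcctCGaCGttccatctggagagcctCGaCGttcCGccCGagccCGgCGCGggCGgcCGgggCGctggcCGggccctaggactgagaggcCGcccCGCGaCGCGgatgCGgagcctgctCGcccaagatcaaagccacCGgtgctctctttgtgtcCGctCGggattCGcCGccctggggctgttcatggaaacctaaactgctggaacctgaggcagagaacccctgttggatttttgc
Wdr82, chr9:106170679-106170928, plus strand: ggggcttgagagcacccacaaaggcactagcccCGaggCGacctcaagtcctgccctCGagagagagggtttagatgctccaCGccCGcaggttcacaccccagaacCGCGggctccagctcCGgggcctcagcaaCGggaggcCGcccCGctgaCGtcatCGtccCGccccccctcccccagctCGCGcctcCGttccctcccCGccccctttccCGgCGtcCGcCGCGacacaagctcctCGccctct
Ehmt1, chr2:24919610-24919859, minus strand: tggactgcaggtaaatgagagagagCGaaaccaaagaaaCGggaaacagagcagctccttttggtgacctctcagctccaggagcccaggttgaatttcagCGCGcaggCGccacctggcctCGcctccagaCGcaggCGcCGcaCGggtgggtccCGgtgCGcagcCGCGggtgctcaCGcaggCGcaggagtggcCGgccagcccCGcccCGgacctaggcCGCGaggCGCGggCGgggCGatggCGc
Ehmt2, chr17:34898224-34898473, plus strand: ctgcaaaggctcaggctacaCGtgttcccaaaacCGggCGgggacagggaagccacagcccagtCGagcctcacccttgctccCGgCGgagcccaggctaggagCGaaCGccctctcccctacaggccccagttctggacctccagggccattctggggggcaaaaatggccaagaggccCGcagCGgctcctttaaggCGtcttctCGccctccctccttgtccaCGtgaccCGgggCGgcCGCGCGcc

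The median of all 32851 promoter windows in the table was 6 CpG. The Kmt2a window held 29 CpG, a number that 6.78% of the windows reached. The windows of Kmt2d and Ehmt1 held 26 each (reached by 9.59%), that of Wdr82 held 24 (11.98%) and that of Ehmt2 held 18 (21.7%). The Kmt2c window held 48, reached by 0.19%, and the Setd1a window held 25, reached by 10.7%. Every matched member therefore lay well above the median, whatever its direction in the comparisons below. The GC box GGGCGG, a motif bound by the SP factors that contains 1 CpG itself, was searched on both strands. It was found in 6 of the 7 windows, all but that of Setd1a, against 32.7% of all windows. The Setd1a window ends 719 bases from the start of the gene in GENCODE M21 and lies inside it, while the other 6 end within 7 bases of theirs, so it does not show the same stretch of the gene.

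The libraries held 25059112 to 31240067 counts, and 16577 to 16943 genes had at least 1 count. Tox, which the vectors encode, was at 104.8 and 126.3 CPM (counts scaled to 1e+06 per library) in TOXFL GFP+ cells against 25.05 and 34.37 in TOXFL GFP- cells, and at 107.2 and 82.9 against 21.8 and 32.16 with TOXdeltaN, so the sort labels held in every library. CD8 T cell markers (5 of 6 found) summed to 2610 to 3020 CPM. Markers of NK, CD4 and gamma-delta T cells summed to 2.55 to 7.14 CPM, with 5 of 7 found. Those of B cells summed to 14 to 17.3, nearly all of it Cd79b with Pax5 at 0, and those of myeloid and dendritic cells to 2.98 to 5.95, with Adgre1 and S100a8 at 0. TOXdeltaN GFP+ replicate 2 stood apart in how counts changed with gene length: with genes in 10 bins by exonic length, its longest bin lay at −0.442 on the log2 scale relative to its shortest bin, where the other 7 libraries lay between −0.0377 and 0.19. The members' TOXdeltaN values and the comparisons of the constructs are also given without it. TOXFL GFP+ replicate 2 had the lowest mitochondrial share of counts, 0.45% against 0.708% to 0.909% in the other 7 libraries. It also held the lowest of the 8 values of Kmt2a, Kmt2b, Kmt2d, Setd1a, Setd1b and Wdr82, and the part of this difference between libraries in those values was not tested.

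Levels of different genes are compared per kilobase of exon. By the mean over the 8 libraries, Wdr82 was the highest at 31.1 CPM per kb (range over libraries 18.2 to 42.3), then Ehmt2 at 22.6 (16.8 to 25.4) and Ehmt1 at 13.5 (9.86 to 15.3). The KMT2 genes followed, with Kmt2a at 7.55 (5.79 to 10.5), Kmt2d at 7.5 (4.76 to 11), Kmt2c at 5.95 (4.11 to 8.95) and Kmt2b at 3.31 (2 to 4.08). Setd1a was at 1.42 (1.11 to 2.05) and Setd1b, the lowest, at 0.538 (0.315 to 0.676). In this order the ranges of Wdr82 and Ehmt2 overlapped, as did those of Ehmt1 and Kmt2a, of Kmt2a and Kmt2d, of Kmt2d and Kmt2c, and of Kmt2b and Setd1a. Those of Ehmt2 and Ehmt1, of Kmt2c and Kmt2b, and of Setd1a and Setd1b did not. With the longest transcript as the length, Kmt2c (8.06) came before Kmt2a (7.64) and Kmt2d (7.54), and the rest of the order was the same.

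**Figure D1:**
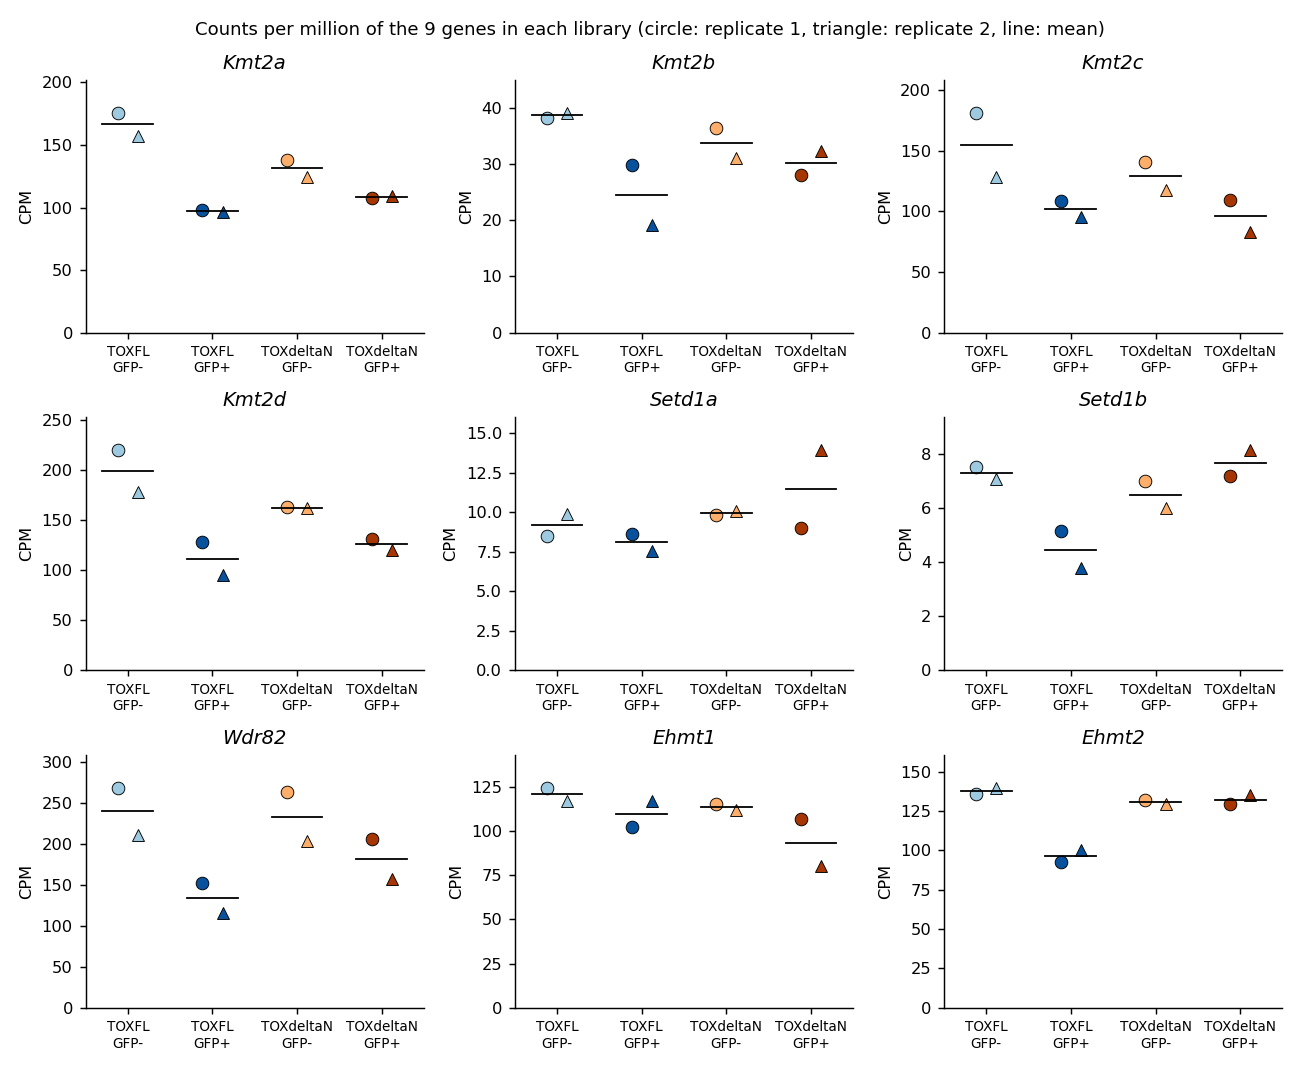
CPM (linear axis from 0) of each gene in the 8 libraries, by construct and GFP status, with circles for replicate 1, triangles for replicate 2 and a line at the mean. With TOXFL, both GFP+ libraries lie below both GFP- libraries for 8 genes, all but Setd1a, against 25.5% of all tested genes. This comparison was known when the genes were chosen.

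Kmt2a, Kmt2c, Kmt2d and Wdr82 had lower counts in GFP+ than in GFP- cells with both constructs on average. For Kmt2a, Kmt2d and Wdr82 the TOXFL value was the further from 0 in every omission of a library. For Kmt2c the order of the constructs turned in some. The TOXFL comparison was known when the genes were chosen, and none of the 9 passed the edgeR test of the difference between constructs. Kmt2b, Setd1b and Ehmt2 were lower with TOXFL while their TOXdeltaN values were near or above those of the GFP- cells. For Kmt2b this depended on TOXdeltaN GFP+ replicate 2. Without it the TOXdeltaN value of Kmt2b was −0.26, beside −0.31 to −0.18 for Kmt2a, Kmt2c, Kmt2d and Wdr82. Setd1a and Ehmt1 differed little with TOXFL, and Ehmt1 was lower in GFP+ cells with both constructs, with the larger value for TOXdeltaN. For Ehmt1 this order also depended on TOXdeltaN GFP+ replicate 2. Without that library the Ehmt1 value was −0.085 with TOXdeltaN and −0.14 with TOXFL. None of the 9 genes passed the edgeR test in the TOXdeltaN comparison. Its libraries are separate from those of TOXFL, but its results were also known when the genes were chosen. Wdr82 alone passed the test once the replicate number was a block (adjusted p = 0.0478), where 0.878% of all genes were called lower. With the length correction added to the block Wdr82 did not pass (adjusted p = 0.0584). In bulk RNA of sorted cells, fewer cells with a transcript and less of it per cell cannot be told apart.

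The KMT2 genes come first. Kmt2a (ENSMUSG00000002028.13, chromosome 9, 44803355 to 44881296, minus strand), the founding member of the family, had 175.8 and 157.2 CPM in TOXFL GFP- cells and 98.2 and 96.44 in TOXFL GFP+ cells. Among the TOXdeltaN libraries it had 138.2 and 124.3 CPM in GFP- cells and 107.7 and 109.2 in GFP+ cells. The GFP+ libraries lay below the GFP- libraries with each construct, and those of TOXFL were the lowest 2 of the 8. The log2 fold change (GFP+ over GFP-) was −0.77 (SE 0.0975), a change of −41.6%, with TOXFL, and −0.28 (SE 0.0971) with TOXdeltaN, where it did not pass the test (edgeR adjusted p = 0.356).

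Kmt2d (ENSMUSG00000048154.17, chromosome 15, 98831669 to 98871204, minus strand), one of the enhancer enzymes, had 219.5 and 177.7 CPM in TOXFL GFP- cells against 127.7 and 94.93 in TOXFL GFP+ cells. In the TOXdeltaN libraries it had 162.4 and 162.2 CPM in GFP- cells against 131.2 and 120.2 in GFP+ cells. Neither construct's groups overlapped. Its log2 fold change was −0.84 (SE 0.149), a change of −44%, with TOXFL and −0.37 (SE 0.149, edgeR adjusted p = 0.384) with TOXdeltaN. The TOXFL value was −0.64 without TOXFL GFP+ replicate 2 and −1.06 without TOXFL GFP+ replicate 1.

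Kmt2c (ENSMUSG00000038056.15, chromosome 5, 25271798 to 25498783, minus strand), its close relative, had 181.5 and 128.7 CPM in TOXFL GFP- cells and 108.7 and 95.62 in TOXFL GFP+ cells. With TOXdeltaN the values were 140.5 and 117.3 CPM in GFP- cells and 109.5 and 83.34 in GFP+ cells. Replicate 1 was above replicate 2 in every group, and the groups did not overlap with either construct. The log2 fold change was −0.60 (SE 0.183) with TOXFL and −0.42 (SE 0.183, edgeR adjusted p = 0.401) with TOXdeltaN. The TOXFL value was −0.33 without TOXFL GFP- replicate 1 and −0.83 without TOXFL GFP- replicate 2, and the TOXdeltaN value was −0.63 without TOXdeltaN GFP+ replicate 1.

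Kmt2b (ENSMUSG00000006307.16, chromosome 7, 30568858 to 30588726, minus strand), the closest relative of Kmt2a, had 38.25 and 39.13 CPM in TOXFL GFP- cells and 29.78 and 19.21 in TOXFL GFP+ cells. With TOXdeltaN it had 36.34 and 30.99 CPM in GFP- cells and 28.09 and 32.38 in GFP+ cells. The TOXFL groups did not overlap, although the GFP+ replicates were far from each other, and the TOXdeltaN groups overlapped. For Kmt2b the log2 fold change was −0.66 (SE 0.187) with TOXFL and −0.16 (SE 0.186, edgeR adjusted p = 0.75) with TOXdeltaN. The TOXFL value was −0.38 without TOXFL GFP+ replicate 2 and −1.01 without TOXFL GFP+ replicate 1. The TOXdeltaN value was −0.036 without TOXdeltaN GFP- replicate 1 and −0.054 without TOXdeltaN GFP+ replicate 1, and was −0.27 without TOXdeltaN GFP- replicate 2.

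The SETD1 genes had the fewest reads. Setd1b (ENSMUSG00000038384.16, chromosome 5, 123142193 to 123168629, plus strand), a catalytic subunit, had 7.531 and 7.079 CPM in TOXFL GFP- cells and 5.143 and 3.797 in TOXFL GFP+ cells. Its TOXdeltaN values were 7.015 and 6.01 CPM in GFP- cells and 7.211 and 8.154 in GFP+ cells. It was the only member whose GFP+ libraries lay below the GFP- libraries with TOXFL and above them with TOXdeltaN. In log2 terms the fold change was −0.71 (SE 0.217) with TOXFL and 0.24 (SE 0.214, edgeR adjusted p = 0.657) with TOXdeltaN. Over the omissions of 1 library these ran from −0.94 to −0.51 and from 0.13 to 0.35.

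Setd1a (ENSMUSG00000042308.14, chromosome 7, 127776670 to 127800122, plus strand), the other catalytic subunit, had 8.463 and 9.861 CPM in TOXFL GFP- cells, 8.629 and 7.532 in TOXFL GFP+ cells, 9.787 and 10.07 in TOXdeltaN GFP- cells, and 8.988 and 13.91 in TOXdeltaN GFP+ cells. The groups overlapped in both comparisons. These values give a log2 fold change of −0.18 (SE 0.216) with TOXFL and 0.20 (SE 0.214, edgeR adjusted p = 0.711) with TOXdeltaN, and the latter was −0.14 without TOXdeltaN GFP+ replicate 2 and 0.49 without replicate 1 of that group. The TOXFL value was −0.067 without TOXFL GFP- replicate 2, −0.086 without TOXFL GFP+ replicate 2 and −0.29 without TOXFL GFP- replicate 1. In GENCODE M21, 51.85% of its exonic bases also belong to the readthrough gene Gm49388 on the same strand, so the split of reads between them is uncertain. The other members shared at most 2.27% of their exonic bases with another gene.

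Wdr82 (ENSMUSG00000020257.13, chromosome 9, 106170928 to 106191139, plus strand), the shared subunit of both SETD1 complexes, had 268.4 and 210.7 CPM in TOXFL GFP- cells and 152.2 and 115.6 in TOXFL GFP+ cells. With TOXdeltaN it had 263.6 and 203 CPM in GFP- cells and 206 and 157 in GFP+ cells. As for Kmt2c, replicate 1 was above replicate 2 in every group. The TOXFL groups did not overlap, and the TOXdeltaN groups overlapped by the narrow margin of 203 against 206. The log2 fold change was −0.84 (SE 0.194), a change of −44.1%, with TOXFL and −0.36 (SE 0.192, edgeR adjusted p = 0.47) with TOXdeltaN. The TOXFL value was −0.65 without TOXFL GFP+ replicate 2 and −1.05 without TOXFL GFP+ replicate 1. The TOXdeltaN value was −0.16 without TOXdeltaN GFP- replicate 1 and −0.57 without TOXdeltaN GFP+ replicate 1.

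The genes of the G9a-GLP pair had unlike values. Ehmt2 (ENSMUSG00000013787.15, chromosome 17, 34898469 to 34914052, plus strand), which encodes G9a, had 135.8 and 139.7 CPM in TOXFL GFP- cells and 92.45 and 100.2 in TOXFL GFP+ cells. In the TOXdeltaN culture it had 131.8 and 129.4 CPM in GFP- cells and 129.3 and 134.9 in GFP+ cells. The TOXFL GFP+ libraries were the lowest 2 of the 8, and the other 6 lay between 129.3 and 139.7. For Ehmt2 the log2 fold change was −0.52 (SE 0.0883), a change of −30.1%, with TOXFL and 0.016 (SE 0.0879, edgeR adjusted p = 0.953) with TOXdeltaN.

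Ehmt1 (ENSMUSG00000036893.17, chromosome 2, 24789928 to 24919614, minus strand), which encodes GLP, had 124.4 and 116.9 CPM in TOXFL GFP- cells and 102.1 and 116.7 in TOXFL GFP+ cells. With TOXdeltaN it had 115 and 111.8 CPM in GFP- cells and 106.9 and 80.02 in GFP+ cells. The groups did not overlap with either construct, with TOXFL by the narrow margin of 116.9 against 116.7. Its log2 fold change was −0.14 (SE 0.136) with TOXFL and −0.28 (SE 0.136, edgeR adjusted p = 0.437) with TOXdeltaN. The TOXdeltaN value was −0.50 (adjusted p = 0.0237) without TOXdeltaN GFP+ replicate 1, and −0.085 at the other end of the range over the 8 omissions of a library. The TOXFL value was −0.048 without TOXFL GFP+ replicate 1 and −0.24 without TOXFL GFP+ replicate 2.

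With TOXFL, both GFP+ libraries lay below both GFP- libraries for 8 of the 9 genes, where 25.5% of all tested genes did so. The edgeR fit called 1 of them lower, Kmt2a (adjusted p = 0.0399), where 0.0300% of all genes were called lower. DESeq2 called 6 lower, the other 5 being Kmt2b, Kmt2c, Kmt2d, Wdr82 and Ehmt2, where 1.51% of all genes were called lower. These shares come from the comparison known when the genes were chosen, and nothing is read from them. With TOXdeltaN, both GFP+ libraries lay below both GFP- libraries for 4 of the 9 genes (Kmt2a, Kmt2c, Kmt2d and Ehmt1), against 20.8% of all tested genes, and above them for 1 (Setd1b), against 21.1%. The same 4 genes were lower in this sense with both constructs, against 11.4% of all genes. By exonic length, that share was 24.6% in the longest of 10 bins, which holds Kmt2a, Kmt2c and Kmt2d. It was 19.4% in bin 9, which holds Ehmt1. edgeR called 0 of the 9 with TOXdeltaN, where it called 0.0300% of all genes in either direction and 1632 genes (12.2%) had an unadjusted p under 0.05, of which 3 were members, and DESeq2, which called 1.05% of all genes, also called 0 of the 9. Without TOXdeltaN GFP+ replicate 2, the library that stood apart, edgeR again called 0 of them. The log2 fold changes were then −0.31 for Kmt2d, −0.29 for Kmt2a, −0.26 for Kmt2b, −0.24 for Kmt2c, −0.18 for Wdr82 and −0.085 for Ehmt1, so those of Kmt2c, Wdr82 and Ehmt1 shrank by more than 1.5 times. Setd1a was at −0.14, Ehmt2 at −0.014 and Setd1b at 0.15.

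The libraries carry replicate numbers, and same-numbered libraries deviated together in all pairs of groups. With the replicate number as a block, the edgeR fit called 5 members lower with TOXFL, where 1.97% of all genes were called lower. These were Kmt2a, Kmt2c, Kmt2d, Wdr82 and Ehmt2, and as above nothing is read from this count. In the TOXdeltaN comparison the blocked fit called 1 member lower, Wdr82 (log2 fold change −0.36, SE 0.0753, adjusted p = 0.0478), where 0.878% of all genes were called lower. Over the alternative settings its adjusted p ran from 0.0478 to 0.617, and with the block and the length correction together it was 0.0584. Its GFP+ library was below the GFP- library of the same number in both pairs. The blocked adjusted p of Kmt2c with TOXdeltaN was 0.0576 and that of Kmt2d 0.105.

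Long genes as a whole had lower counts in GFP+ cells, which bears on this set because 5 of its 9 genes are in the longest bin. Tested genes were put into 10 bins of equal size by exonic length. The median log2 fold change went from 0.032 in the shortest bin (bin 1) to −0.131 in the longest (bin 10, 9.55 to 123 kb) with TOXFL, and from 0.164 to −0.148 with TOXdeltaN. In the longest bin 45.2% of genes had both GFP+ libraries below both GFP- libraries with TOXFL and 35.5% with TOXdeltaN, while in the shortest bin the shares were 16.4% and 9.53%. Kmt2c (20.29 kb), Kmt2d (19.93 kb), Kmt2a (16.67 kb), Setd1b (12.07 kb) and Kmt2b (9.6 kb) belong to the longest bin. Ehmt1 (8.12 kb) is in bin 9, Setd1a (6.79 kb) and Wdr82 (6.34 kb) in bin 8, and Ehmt2 (5.49 kb) in bin 7, where the median was −0.018 with TOXFL and −0.0431 with TOXdeltaN.

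**Figure D2:**
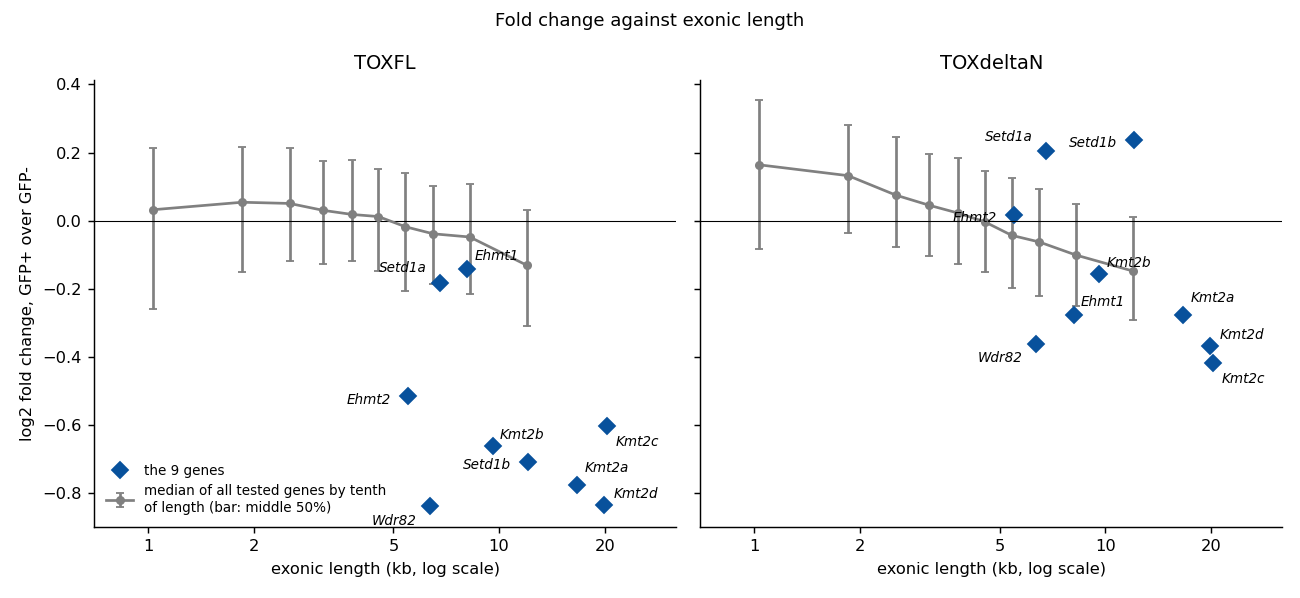
Log2 fold change of GFP+ over GFP- cells against exonic length (kb, log scale) for TOXFL and TOXdeltaN, with diamonds for the 9 genes and grey points for the median of all tested genes in each of 10 length bins (bars: the middle 50%). With TOXFL 7 genes lie below the middle 50% of genes of their length, while with TOXdeltaN 4 lie below it (Kmt2c, Kmt2d, Wdr82 and Ehmt1), 3 within it and 2 above it (Setd1a and Setd1b).

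A trend of counts with length was then removed within each library by a loess curve. With TOXFL the corrected log2 fold changes were −0.81 for Wdr82, −0.63 for Kmt2d, −0.60 for Kmt2a, −0.59 for Setd1b, −0.58 for Kmt2b, −0.50 for Ehmt2 and −0.39 for Kmt2c, and −0.14 for Setd1a and −0.079 for Ehmt1. All 9 stayed below 0. The correction moved Kmt2c and Kmt2d by the most and Ehmt2 and Wdr82 by the least. After it 7 of the 9 genes had non-overlapping, lower GFP+ libraries with TOXFL, against 24.5% of all genes, and edgeR called 0 of them, where it called 0.0225% of all genes lower (Kmt2a had an adjusted p of 0.0774). With the block as well, the 5 genes named above were called again, where 2.19% of all genes were called lower.

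With TOXdeltaN the corrected log2 fold changes were −0.30 for Wdr82 (SE 0.179), −0.22 for Kmt2c (SE 0.136), −0.19 for Ehmt1 (SE 0.11), −0.16 for Kmt2d (SE 0.129), −0.079 for Kmt2a (SE 0.103) and −0.0285 for Kmt2b. Ehmt2 was at 0.063, Setd1a at 0.29 and Setd1b at 0.40. The values of Kmt2a, Kmt2b, Kmt2c and Kmt2d were thus nearer to 0 than before, by more than 1.5 times. Kmt2a no longer had separate GFP+ and GFP- libraries. Kmt2c, Kmt2d and Ehmt1 did, 3 genes, against 19.5% of all genes, and Setd1b lay above, against 21.0%. Without TOXdeltaN GFP+ replicate 2, a setting chosen after the data were seen, the corrected values were −0.23 for Kmt2d, −0.22 for Kmt2a and Kmt2b, −0.16 for Kmt2c and Wdr82, −0.12 for Setd1a, −0.054 for Ehmt1, −0.0015 for Ehmt2 and 0.20 for Setd1b. The correction then left Kmt2a, Kmt2b and Kmt2d further from 0 than it did with all 8 libraries. Over all 9 genes the median moved from −0.661 to −0.576 with TOXFL and from −0.276 to −0.0794 with TOXdeltaN, beside medians of −0.00302 and 0.00544 over all tested genes before the correction. What part of the lower counts of the long members goes with the length trend, which was itself unequal between libraries, was not tested.

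**Figure D3:**
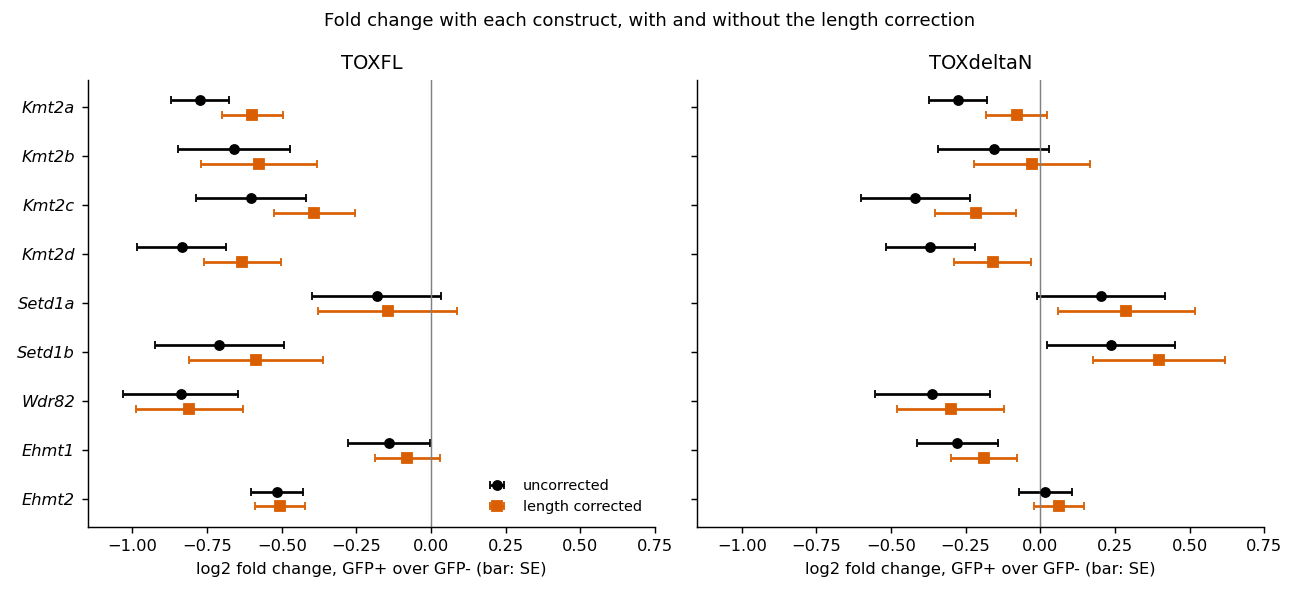
Log2 fold change of GFP+ over GFP- cells for each gene with TOXFL and TOXdeltaN, from the edgeR fit without (circles) and with (squares) removal of the length trend in each library, with bars of 1 SE. With TOXFL every point is below 0, and with TOXdeltaN the corrected values run from −0.30 (Wdr82) to 0.40 (Setd1b).

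The difference between the constructs was tested as an interaction, TOXFL effect minus TOXdeltaN effect. It holds the TOXFL libraries and so is not independent of the choice of genes. The difference was below 0 for 8 of the 9 genes: −0.95 (SE 0.305) for Setd1b, −0.53 (SE 0.125) for Ehmt2, −0.51 for Kmt2b, −0.50 for Kmt2a, −0.48 for Wdr82, −0.47 for Kmt2d, −0.39 for Setd1a and −0.18 for Kmt2c. For Ehmt1 it was 0.14. No gene of the 13329 passed the edgeR test of this difference, 318 (2.39%) had an unadjusted p under 0.05, DESeq2 called 7 (0.0525%), and every member had an adjusted p of 1. For Ehmt2 the adjusted p over the alternative settings ran from 0.402 to 1. A difference between the responses to TOXFL and to TOXdeltaN was therefore not shown for these genes. Without TOXdeltaN GFP+ replicate 2 the difference was −0.86 for Setd1b, −0.66 for Wdr82, −0.53 for Kmt2d, −0.50 for Ehmt2, −0.49 for Kmt2a, −0.40 for Kmt2b, −0.37 for Kmt2c and −0.039 for Setd1a, and −0.056 for Ehmt1, whose sign turned. That of Kmt2c was 0.087 without TOXFL GFP- replicate 1 and 0.024 without TOXdeltaN GFP+ replicate 1.

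The GFP+ groups were also set against each other, TOXFL over TOXdeltaN. This comparison holds the TOXFL GFP+ libraries, so it too is not independent of the choice of genes. Ehmt2 had a log2 difference of −0.46 (SE 0.0883, edgeR adjusted p = 0.822), Setd1b of −0.78, Setd1a of −0.50, Wdr82 of −0.44, Kmt2b of −0.30, Kmt2d of −0.18 and Kmt2a of −0.16. Kmt2c was at 0.083 and Ehmt1 at 0.23. Without TOXdeltaN GFP+ replicate 2 the differences were −0.69 for Setd1b, −0.62 for Wdr82, −0.43 for Ehmt2, −0.24 for Kmt2d, −0.20 for Kmt2b, −0.16 for Setd1a, −0.15 for Kmt2a, −0.10 for Kmt2c and 0.032 for Ehmt1. Without replicate 1 of that group they were −0.79 for Setd1a, −0.23 for Wdr82, −0.11 for Kmt2d, 0.29 for Kmt2c and 0.45 for Ehmt1. Without TOXFL GFP+ replicate 2 those of Kmt2b (−0.021), Kmt2d (0.023) and Wdr82 (−0.25) were nearer to 0 or past it, and without TOXFL GFP+ replicate 1 those of Kmt2b (−0.65) and Kmt2d (−0.41) grew. With the length correction the values were −0.30 for Kmt2d, −0.28 for Kmt2a and −0.028 for Kmt2c, which moved by more than 1.5 times, and −0.89 for Setd1b, −0.57 for Setd1a, −0.50 for Ehmt2, −0.49 for Wdr82, −0.40 for Kmt2b and 0.16 for Ehmt1. Both TOXFL libraries lay below both TOXdeltaN libraries for 5 genes (Wdr82, Ehmt2, Kmt2a, Setd1a and Setd1b), against 16.1% of all tested genes. edgeR called 0 genes (768, or 5.76%, with an unadjusted p under 0.05), while DESeq2 called 19 genes, or 0.143%, Ehmt2 among them (adjusted p = 0.0339, range over the alternative settings 0.0339 to 0.998).

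The GFP- groups, cells without a detectable vector from the TOXFL and TOXdeltaN cultures, were compared as a background. This comparison holds the TOXFL GFP- libraries, so it is not independent of the choice of genes. Over all genes of the longest bin the median log2 difference, TOXFL over TOXdeltaN, was 0.0736. Both TOXFL GFP- libraries lay above both TOXdeltaN GFP- libraries for 6 of the 9 genes (Kmt2a, Kmt2b, Kmt2d, Setd1b, Ehmt1 and Ehmt2), against 16.8% of all tested genes. The log2 difference was 0.34 (SE 0.0968) for Kmt2a, 0.29 for Kmt2d, 0.27 for Kmt2c, 0.20 for Kmt2b, 0.17 for Setd1b, 0.089 for Ehmt1, 0.077 for Ehmt2 and 0.038 for Wdr82, and −0.12 for Setd1a. No member passed the edgeR test (all adjusted p = 1), nor did any other gene, with 328 genes (2.46%) at an unadjusted p under 0.05 and 8 (0.0600%) called by DESeq2. With the length correction the difference was 0.24 for Kmt2a, 0.17 for Kmt2d, 0.15 for Kmt2c and 0.070 for Ehmt2. Kmt2c was at −0.0041 and Kmt2d at 0.13 without TOXFL GFP- replicate 1, while Kmt2a ran from 0.26 to 0.42 over the omissions. Side by side, Kmt2a differed by −0.16 between the GFP+ groups and by 0.34 between the GFP- groups, or by −0.28 and 0.24 with the length correction. Ehmt2 differed by −0.46 between the GFP+ groups and by 0.077 between the GFP- groups.

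The other subunits of the KMT2 and SETD1 complexes lay near 0 as a list. Of 16 genes, all tested, edgeR called 0 in either direction with either construct, with or without the block, and DESeq2 called 0. An unadjusted edgeR p under 0.05 was found for 4 with TOXFL and 3 with TOXdeltaN. Over all tested genes the shares with such a p were 13.4% and 12.2%, and these apply to the lists below as well. The list counts Kmt2e, a KMT2 relative rather than a subunit of these complexes (log2 −0.27 with TOXFL and −0.13 with TOXdeltaN). With the block and the length correction together Ash2l, a core subunit, was called higher with TOXFL (corrected log2 0.31, adjusted p = 0.0474): it had 121 and 120.5 CPM in GFP- cells against 138.5 and 145 in GFP+ cells, and without the correction its log2 fold change was 0.23 (adjusted p = 0.281, and 0.137 with the block). The median log2 fold change of the list was −0.0124 with TOXFL and −0.0767 with TOXdeltaN, or −0.00422 and −0.00663 with the length correction. The core subunit Wdr5 was at 65.46 and 69.27 CPM in TOXFL GFP- cells and 66.8 and 69.73 in TOXFL GFP+ cells. Men1, which encodes menin, had a TOXFL log2 fold change of 0.041 (SE 0.0963), and Cxxc1, the CpG-binding SETD1 subunit, of −0.044 (SE 0.092); these 3 were chosen after their values were seen. The largest differences by the naming rule were those of Bod1l, a SETD1A partner (−0.37, adjusted p = 0.184), and the nuclear receptor coactivator Ncoa6 (−0.34, adjusted p = 0.552) with TOXFL. With TOXdeltaN they were those of Pagr1a, a subunit of the KMT2C and KMT2D complexes (−0.77, adjusted p = 0.377), and the H3K27 demethylase gene Kdm6a of the same complexes (−0.36, adjusted p = 0.363).

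Among the H3K4 demethylases, which remove the mark, 5 of 6 were tested (Kdm5d had at most 1 count). Their median was −0.164 with TOXFL and −0.401 with TOXdeltaN, or −0.153 and −0.256 with the length correction. The edgeR fit called 0, with 2 and 4 genes at an unadjusted p under 0.05. With the block Kdm5b fell with both constructs. It had 83.32 and 93.25 CPM in TOXFL GFP- cells against 64.19 and 73.28 in GFP+ cells (log2 −0.36, adjusted p = 0.238, and 0.0441 with the block), and 76.96 and 89 against 51.95 and 55.2 with TOXdeltaN (log2 −0.63, adjusted p = 0.171, and 0.0104 with the block). Once length was corrected in the blocked fit, the TOXFL call was lost (adjusted p = 0.204) and the TOXdeltaN call stayed (0.0231). Kdm5a was at −0.30 with TOXFL and Kdm5c at −0.43 with TOXdeltaN, neither passing the test (adjusted p = 0.221 and 0.351). With the length correction these values were −0.15 and −0.36. DESeq2 called 0 of the list with TOXFL and 2 with TOXdeltaN, where 0.556% of all genes were called lower, Kdm5b (adjusted p = 0.00149) and Kdm5a (log2 −0.40, adjusted p = 0.0397).

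Around G9a and GLP, the 13 partners and other H3K9 methyltransferases had medians of −0.0162 with TOXFL and 0.0667 with TOXdeltaN. With the length correction these were 0.0405 and 0.0688. The edgeR fit called 0, with or without the block, as did DESeq2. For 1 gene with TOXFL and 3 with TOXdeltaN the unadjusted edgeR p was under 0.05. Suv39h2 (0.25, adjusted p = 0.59) and Suv39h1 (0.23, adjusted p = 0.305), which place trimethylation in heterochromatin, had the largest values with TOXFL. Prdm2 (−0.36, adjusted p = 0.376) and Setdb1 (−0.29, adjusted p = 0.396) had the largest with TOXdeltaN. Wiz, the zinc-finger partner of the G9a-GLP pair, was at −0.039 (SE 0.132) with TOXFL; it was chosen after its values were seen.

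The 10 H3K9 demethylases had medians of −0.179 with TOXFL and −0.234 with TOXdeltaN, or −0.129 and −0.155 with the length correction. Without the block edgeR called 0, with 4 genes at an unadjusted p under 0.05 in each comparison. With TOXFL both GFP+ libraries lay below both GFP- libraries for 8 of them and above for 2, against 25.5% and 24.9% of all genes. With TOXdeltaN the counts were 4 and 1, against 20.8% and 21.1%. In the other lists the TOXFL counts were 6 and 5 of 16 in the subunit list, and 3 and 0 of 5 H3K4 demethylases. They were 3 and 3 of 13 around G9a and GLP, 2 and 3 of 6 WDR82 partners, and 7 and 7 of 19 other methyltransferases. With the block Kdm7a, a demethylase of H3K9 and H3K27, fell with both constructs. It had 60.13 and 57.79 CPM in TOXFL GFP- cells against 40.77 and 41.21 in GFP+ cells (log2 −0.52, adjusted p = 0.0939, and 0.015 with the block). The TOXdeltaN libraries had 49.96 CPM in both GFP- libraries against 33.8 and 30.54 in GFP+ cells (log2 −0.63, adjusted p = 0.11, and 0.0151 with the block). These calls stood with the length correction added to the block (adjusted p = 0.0187 and 0.0175), and DESeq2 made them as well (adjusted p = 0.00641 and 0.000829). Kdm4a was at −0.36 with TOXFL and Phf8 at −0.39 with TOXdeltaN (adjusted p = 0.287 and 0.363). Kdm4d, the highest point of this list in the plot of the lists and named for that, was at 0.79 with each construct (SE 0.468 and 0.473), with a mean of 1.794 CPM.

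**Figure D4:**
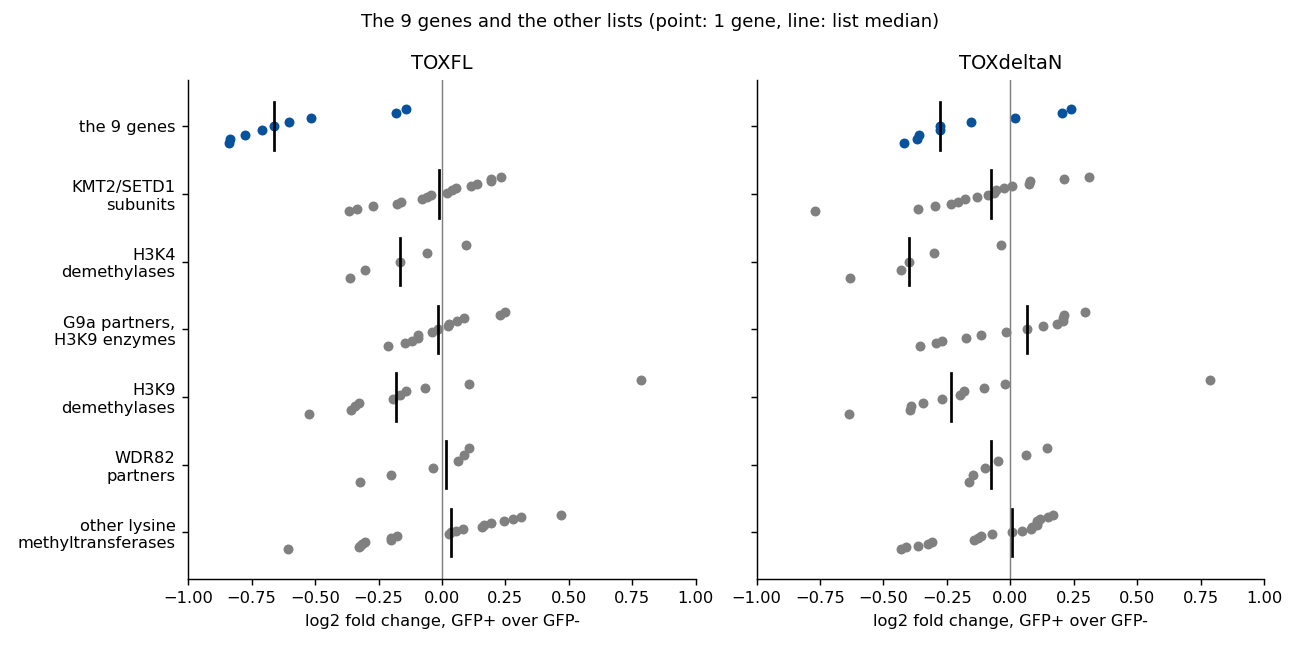
Log2 fold change of GFP+ over GFP- cells (1 point per tested gene, black line at the list median) for the 9 genes and 6 lists of related genes, with TOXFL on the left and TOXdeltaN on the right. With TOXFL the median of the 9 genes, which were chosen with this comparison known, is −0.661, and those of the other lists lie between −0.179 and 0.0354.

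Of the 6 partners of WDR82 in its phosphatase and transcription-restricting complexes, edgeR called 0, with or without the block, as did DESeq2, and 1 gene with TOXFL and 0 with TOXdeltaN had an unadjusted p under 0.05. The medians were 0.0146 with TOXFL and −0.0749 with TOXdeltaN, or 0.0168 and −0.00891 with the length correction. Zc3h4, which limits noncoding transcription together with WDR82, had TOXFL and TOXdeltaN values of −0.32 and −0.16 (adjusted p = 0.306 and 0.594), and Ppp1r10, which encodes PNUTS, was at −0.20 (adjusted p = 0.468) with TOXFL. Tox4 was at −0.036 with TOXFL and −0.15 (adjusted p = 0.565) with TOXdeltaN. Each of these values was nearer to 0 than that of Wdr82 in the same comparison, and the difference was not tested.

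Of 19 other histone lysine methyltransferases, edgeR called 0 without the block, with 5 genes at an unadjusted p under 0.05 with TOXFL and 2 with TOXdeltaN. The medians were 0.0354 and 0.00504, or 0.0452 and 0.0544 with the length correction. With the block Ash1l, an H3K36 methyltransferase of the Trithorax group, fell with TOXFL: it had 80.86 and 69.66 CPM in GFP- cells against 49.3 and 49.52 in GFP+ cells (log2 −0.61, adjusted p = 0.0897, 0.0137 with the block, 0.0404 with block and length correction, and 0.000976 by DESeq2). Its TOXdeltaN value was −0.41 (adjusted p = 0.271, and 0.0798 with the block). Nsd2, an H3K36 dimethyltransferase, was called higher with TOXFL with block and length correction together (corrected log2 0.37, adjusted p = 0.018). It had 193.4 and 202.8 CPM in GFP- cells against 227.1 and 226.6 in GFP+ cells, a log2 fold change of 0.20 before the correction (adjusted p = 0.446, and 0.295 with the block). Setd7 was at −0.33 with TOXFL (adjusted p = 0.581) and Kmt5b at −0.36 with TOXdeltaN (adjusted p = 0.431).

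The 9 genes were compared with each other and with all 9053 tested genes over 8 CPM by the root mean square difference of their centred log2 CPM over the 8 libraries, where 0 means the same profile. Among the members the closest pair was Kmt2a and Kmt2d (0.128), followed by Kmt2c and Kmt2d (0.165) and Kmt2d and Wdr82 (0.169). The farthest pair was Kmt2c and Setd1a (0.471). For Kmt2a the nearest genes of the whole table were Mdn1 (0.0875; 21.8 kb of exon), Akap9 (0.0952; 21.4 kb) and Lnpep (0.0998; 14.1 kb), beside a spread of Kmt2a itself of 0.299. For Kmt2d they were Rnf213 (0.0684; 16.9 kb), Tet3 and Chd3, and for Kmt2c Vps13a (0.0555; 17.8 kb), Prkdc (0.0579; 13.2 kb) and Arhgap27os3. Of these 9 nearest genes, 7 were in the longest bin by length, all but Chd3 and Arhgap27os3.

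The remaining members had other neighbours. Those of Wdr82 were Psap (0.095; 2.74 kb), Limk1 and Trim12c, and those of Ehmt2 were Zfp146 (0.0932; 3.27 kb), Chmp4b and Ccdc71. Ehmt1 had Itsn2 (0.0381), Dcp1a and Gga3, beside a spread of its own of 0.184. Setd1a had the ribosomal protein genes Rps12 (0.0502, 2.03 kb), Rpsa and Rps2. Setd1b had Mllt6 (0.112, 7.45 kb), Kdelr1 (1.87 kb) and Hnrnpa0 (2.68 kb). Kmt2b had Grap2 (0.0968, 6.24 kb), Nlk (5.45 kb) and Thra (4.61 kb). So Setd1b and Kmt2b, themselves in the longest bin, had nearest genes outside it. No gene was among the nearest 3 of more than 1 member. These distances rest on the same 8 libraries as the comparisons and are a description.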

How the data were processed

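Gene expression was measured by RNA sequencing in 8 libraries, 2 for each labelled combination of construct with GFP status. The input, per the labels' protocols, was 8 ng of total RNA, which went into SMART-Seq v4 and Nextera XT, a chemistry that does not mark strand. The authors ran bcl2fastq 2.20, STAR 2.6.1, RSEM 1.2.28 and cutadapt with GRCm38, per the submitters' processing notes. The deposited values are RSEM expected counts per gene, in whole numbers and not normalised. The annotation release and the rounding step are not given in the sources used here. Of 31907 rows, 92 were ERCC spike-ins with 0 counts. Positions and exonic lengths come from GENCODE M21, which held all 9 member identifiers with their version, and promoters from RefSeq (GRCm38.p6).

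The analysis used edgeR 4.0.16 in R 4.3.3: filterByExpr by group, TMM factors (0.9894 to 1.02), a quasi-likelihood F-test on group means of all 4 groups, and Benjamini-Hochberg adjustment over 13329 genes with a threshold of 0.05. SE is the log2 fold change divided by the square root of F. A gene is called where its adjusted p is under 0.05. The biological coefficient of variation was 0.1321, and replicates differed by more than sampling noise (chi-square per degree of freedom 11.9 to 41.9). The length correction removed a loess curve (span 0.5) of log2 CPM on log exonic length in each library. DESeq2 1.42.0, limma-voom (limma 3.58.1), other scalings, no filter, a GC correction, the groups compared alone and the omission of each library were alternatives. The length correction without TOXdeltaN GFP+ replicate 2 was added after seeing the data. The scripts were tested on simulated data.

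The labels do not say that replicate numbers pair libraries. Libraries with the same number deviated together from the means of their groups, by correlation across genes, in all 6 pairs of groups (0.168 to 0.241 over tested genes, 0.255 to 0.485 over those above 8 CPM), so the pairing is inferred from the data, and a fit that holds the number as a block (the blocked fit) is given where it changed a call or a count.

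The members and gene lists were chosen with earlier results of these data known. The text names all members, list genes called with or without the block, the 2 list genes over 8 CPM with the largest log2 fold change in each comparison, and the 3 genes nearest in pattern to each member. Ash2l and Nsd2 were named after their values were seen, for a call with block and length correction. The erythroid marker list is not reported here.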

Additional observations from a re-analysis of the deposited data

How the results depend on the processing

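The number of calls depended on the fit far more than the members' values did. With TOXFL edgeR called 6 genes, against 314 with DESeq2, 464 with the replicate block, 563 with the block and the length correction, 2 with only the groups compared and 678 without the filter. Of the 9 members it called 1, against 6 with DESeq2 and without the filter, 5 with the block and with block and length correction, and 0 with the length correction or only the groups compared. With TOXdeltaN it called 4 genes, against 121, 220, 274, 0 and 516 in the same order, and 0 members, against 1 with the block and 1 without the filter. For the difference of the construct effects it called 0 genes, against 7 with DESeq2 and 45 without the filter. Between the GFP+ groups it called 0 genes, against 19 with DESeq2, 1 with the block, 1 with block and length correction, 1 with only these groups and 116 without the filter, and 0 members, against 1 with DESeq2 and 2 without the filter. Between the GFP- groups it called 0 genes, against 8 with DESeq2 and 37 without the filter. The cause of these differences was not tested. Apart from these the block changed no call of a member.

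Omitting each library in turn gave 0 to 119 genes and 0 to 3 members with TOXFL, 0 to 1621 genes and 0 to 1 member with TOXdeltaN, 0 to 1 gene for the difference of the effects, and 0 to 703 genes and 0 to 2 members between the GFP+ groups. The 1621 and the 703 came without TOXdeltaN GFP+ replicate 1, and the 119 without either TOXdeltaN GFP+ library. An omission leaves a group with 1 library, which is assumed to vary like the others. The TOXFL call of Kmt2a was kept in 2 of 8 omissions, those of TOXdeltaN GFP+ replicates 1 and 2 (adjusted p 0.0305 to 0.578), and was lost with the length correction (0.0774) and with only the groups compared (0.0865).

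Of the members' log2 fold changes, 748 kept their direction and their side of the threshold, 31 became called, 8 lost a call and 14 changed sign. Those that changed sign, with the range over omissions where an omission did it, were as follows. With TOXdeltaN they were Ehmt2 (−0.0263 with the GC correction, −0.0142 without TOXdeltaN GFP+ replicate 2, range −0.0142 to 0.0481) and Setd1a (−0.144 without the same library, range −0.144 to 0.488). In the difference of the effects they were Kmt2c (0.0243 without TOXdeltaN GFP+ replicate 1, 0.0867 without TOXFL GFP- replicate 1, range −0.411 to 0.0867) and Ehmt1 (−0.0559 without TOXdeltaN GFP+ replicate 2, range −0.0559 to 0.36). Between the GFP+ groups they were Kmt2c (−0.0284 with the length correction, −0.0277 with block and length correction, −0.102 without TOXdeltaN GFP+ replicate 2, −0.013 without TOXFL GFP+ replicate 1, range −0.102 to 0.29) and Kmt2d (0.023 without TOXFL GFP+ replicate 2, range −0.406 to 0.023). Between the GFP- groups they were Wdr82 (−0.138 without TOXdeltaN GFP- replicate 2, −0.149 without TOXFL GFP- replicate 1, range −0.149 to 0.239) and Kmt2c (−0.00407 without TOXFL GFP- replicate 1, range −0.00407 to 0.494). Depth limits Setd1b and Setd1a most, at 121 to 211 and 227 to 348 reads per library. With the length correction and without TOXdeltaN GFP+ replicate 2, a setting chosen after seeing the data, edgeR called 91 genes and 2 members with TOXFL and 0 genes with TOXdeltaN, and the values that changed sign were Setd1a (−0.12) and Ehmt2 (−0.00152) with TOXdeltaN, Ehmt1 (−0.0239) in the difference of the effects and Kmt2c (−0.0887) between the GFP+ groups.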
